A study of Mus musculus with 9 samples.

Results

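The Skint genes of the mouse were followed in whole ear skin treated with anisomycin or imiquimod. The members were the 10 genes Skint1 to Skint10, taken by symbol from the platform annotation of the array. Rows that carried exactly 1 symbol were used, and the row of a gene was chosen by its mean log2 value across all 9 arrays, the highest being kept. Of the 10 members, 6 had such a row, among 19938 genes tested in all: Skint2, Skint3, Skint4, Skint7, Skint9 and Skint10. Each had 1 row only, so the choice by mean never operated. Skint1, Skint5, Skint6 and Skint8 were not analysed here. Skint11, a family gene outside the 10, was measured and is given beside them. Skint9 was already known from earlier work on these arrays as one of the largest falls with anisomycin, so its value in that contrast is a description and carries no test.

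All mice were female, of C57BL/6 background and 7 to 9 weeks old, and RNA came from whole ear skin, with 3 arrays in each of 3 groups. Anisomycin, an inhibitor of ribosomal protein synthesis that also activates stress kinases, was dissolved in 99.5% ethanol to 2 mg/ml and put on both faces of the ear once daily, 10 µl per face. Imiquimod, a Toll-like receptor 7 ligand used to model psoriasis-like dermatitis, was given once daily to both faces as 10 mg of a 5% cream. Both treatments lasted 5 days. The vehicle group is labelled as vehicle only, with neither the agent nor the days given, so an ethanol and a cream control cannot be told apart. The labels do not say whether the samples of a group were separate animals beyond n = 3. The p-values therefore speak for the spread among these arrays, which may be technical.

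Skint proteins are membrane proteins of the butyrophilin-like type, with immunoglobulin-like domains outside the cell, made mainly by keratinocytes and by thymic epithelium. The founding gene, Skint1, is needed in the thymus for the selection of the Vγ5Vδ1 T cells that later settle in mouse epidermis as dendritic epidermal T cells. These T cells watch keratinocytes for stress and help wounds close, and Skint3 and Skint9 have been linked to that repair. The genes lie together on mouse chromosome 4. In RefSeq (GRCm38.p6) their order is Skint8, Skint7, Skint1, Skint4, Skint3, Skint9, Skint2, Skint10, Skint6, Skint5 and Skint11, with no other protein-coding gene listed between them.

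The sequences before the gene starts are shown so that the likeness of the family genes can be set beside their values after treatment. The table of RefSeq promoter windows held 12 windows for the 11 family genes, with 2 starts for Skint4. The 250 bases before the start are printed 5′ to 3′ on the strand of the gene. For Skint9 (chr4:112433986-112434235, minus strand), Skint10 (chr4:112774862-112775111, minus strand) and Skint11 (chr4:114163134-114163383, plus strand) the capitals mark TGACTTTCATAAA, the longest run that all 3 windows share.
Skint9: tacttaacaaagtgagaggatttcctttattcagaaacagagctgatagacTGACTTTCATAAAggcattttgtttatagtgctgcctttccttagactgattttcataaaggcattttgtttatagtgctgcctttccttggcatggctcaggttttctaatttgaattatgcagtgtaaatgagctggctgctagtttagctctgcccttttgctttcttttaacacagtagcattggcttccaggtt
Skint10: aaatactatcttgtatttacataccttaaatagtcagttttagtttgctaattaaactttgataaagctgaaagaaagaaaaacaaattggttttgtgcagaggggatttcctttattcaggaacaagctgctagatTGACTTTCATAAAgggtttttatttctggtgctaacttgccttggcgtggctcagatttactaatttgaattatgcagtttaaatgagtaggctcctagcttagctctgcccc
Skint11: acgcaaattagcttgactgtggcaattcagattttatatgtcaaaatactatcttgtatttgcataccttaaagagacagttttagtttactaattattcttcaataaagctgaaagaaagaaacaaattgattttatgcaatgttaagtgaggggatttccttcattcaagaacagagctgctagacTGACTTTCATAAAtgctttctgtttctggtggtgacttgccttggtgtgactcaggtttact

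That run occurred in 3 of the 32851 windows of the table, on either strand, and those 3 were the family windows above. A local alignment of Skint10 with Skint11 covered 209 columns, of which 83.7% were identical, and one of Skint9 with Skint10 covered 117 columns at 84.6%. For Skint3 (chr4:112231995-112232244, plus strand) and the second start of Skint4 (chr4:112081220-112081469, plus strand) the capitals mark TACTTGAGTAAT.
Skint3: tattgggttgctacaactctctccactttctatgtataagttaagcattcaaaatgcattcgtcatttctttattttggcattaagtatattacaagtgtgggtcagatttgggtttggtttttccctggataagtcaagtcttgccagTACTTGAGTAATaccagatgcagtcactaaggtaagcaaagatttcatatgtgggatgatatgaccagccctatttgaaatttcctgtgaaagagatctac
Skint4: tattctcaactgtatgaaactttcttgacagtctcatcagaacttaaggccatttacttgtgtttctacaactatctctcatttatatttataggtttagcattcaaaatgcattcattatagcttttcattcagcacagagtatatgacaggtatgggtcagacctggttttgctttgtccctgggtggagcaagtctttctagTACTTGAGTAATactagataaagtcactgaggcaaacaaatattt

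This word of 12 bases was among the 3 overlapping words shared by the most family genes, namely Skint1, Skint3, Skint4, Skint5 and Skint6, and it occurred in 5 of 32851 windows, all in the family. Skint3 and this start of Skint4 aligned over 196 columns with 78.6% identical. The longest unbroken run shared by any pair, 51 bases, was that of Skint7 and Skint8, which aligned over 71 columns with 97.2% identical. Skint5 and Skint6 aligned over 248 columns with 89.5% identical. Motifs were searched on both strands. The AP-1 motif TGANTCA was found in 1 of the 12 windows (Skint11) against 6.75% of all windows. The STAT motif TTCNNNGAA was found in 1 (Skint8) against 7.02%, and the Grainyhead-like motif AACNGGTT in 1 (Skint8) against 1.79%. For NF-kB only 1 narrow form of the motif was searched, and it was found in 1 window (Skint2) against 1.21%. Looser forms were not searched. That count therefore does not exclude NF-kB-like letters in the other windows, those of Skint10 and Skint11 among them. The TATA box letters TATAAA, at any position and on either strand, were found in 7 of 12 windows, against 12.4% of all windows. Of the family windows only that of Skint1 held them on the strand of the gene. The matches of Skint7 and Skint8 lay in their shared run of 51 bases. The share of all windows on the gene strand alone was not counted. A match is a description of letters and not a binding site. The genes are also similar in their coding parts, which were not compared here, so the probe sets of close copies may share signal and values of single members are uncertain to that extent.

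Levels are log2 expression values, and they are compared between groups for 1 gene at a time, never between genes. Skint9 had the widest differences. In vehicle ears its 3 values were 9.89, 9.13 and 9.43. In anisomycin ears they were 6.01, 6.39 and 6.93. In imiquimod ears they were 7.40, 7.68 and 8.10. The 3 groups did not overlap, with vehicle highest, imiquimod between and anisomycin lowest. The anisomycin mean differed from the vehicle mean by -3.04 (SE 0.27, n = 3 per group), which is 12.2% of the vehicle level on the linear scale. That was the 5th lowest difference of the 19938 genes, the value for which the gene was already known. With imiquimod Skint9 fell by 1.75 on the log2 scale (SE 0.27, limma adjusted p = 0.000574), to 29.7% of vehicle. Between the treatments it was lower with anisomycin, with a difference of -1.28 (SE 0.27, limma adjusted p = 0.00999). The imiquimod contrast shares its vehicle arrays, and the contrast between treatments its anisomycin arrays, with the fall already known. The p-values of Skint9 in these contrasts are therefore not independent of that knowledge.

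Skint10 was ordered in the same way. Its vehicle values were 8.11, 7.23 and 7.41, its imiquimod values 6.67, 6.96 and 6.92, and its anisomycin values 5.48, 5.75 and 6.22. No array of one group reached into another. It fell by 1.77 with anisomycin (SE 0.24, limma adjusted p = 0.000226), to 29.4% of vehicle. With imiquimod the difference from vehicle was -0.73 (SE 0.24, limma adjusted p = 0.0334), or 60.2% of vehicle, and this call was near the threshold. The adjusted p became 0.0932 without vehicle replicate 1, the highest vehicle array, where the difference was -0.47. It became 0.11, 0.0621 and 0.0673 without imiquimod replicates 1, 2 and 3 and 0.0517 without anisomycin replicate 2, and with the replicate number as a block it was 0.0572. Directly compared, anisomycin differed from imiquimod by -1.04 (SE 0.24, limma adjusted p = 0.0155). That call ended without anisomycin replicate 1 or 2 or imiquimod replicate 2 or 3, at adjusted p of 0.057, 0.0566, 0.0596 and 0.0547.

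Skint4 fell in both treatments. Its values were 6.84, 6.11 and 6.67 in vehicle ears, 4.56, 4.43 and 4.85 in anisomycin ears and 4.76, 4.89 and 5.20 in imiquimod ears. All treated arrays lay below all vehicle arrays, and the treated groups overlapped each other. It fell by 1.92 with anisomycin (SE 0.19, limma adjusted p = 3.33e-05), to 26.3% of vehicle, and fell by 1.59 with imiquimod (SE 0.19, limma adjusted p = 0.000134), to 33.1%. Between the treatments the difference was -0.33, with a 95% interval of -0.76 to 0.10 (limma adjusted p = 0.284). That p does not show that the treatments acted alike.

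Skint7 also fell in both treatments. Its vehicle values were 4.91, 4.86 and 5.17, its anisomycin values 4.18, 4.29 and 4.15 and its imiquimod values 4.32, 4.37 and 4.32. Every treated array was below every vehicle array. It fell by 0.77 with anisomycin (SE 0.08, limma adjusted p = 4.25e-05) and by 0.64 with imiquimod (SE 0.08, limma adjusted p = 0.000169). The treated groups did not overlap either, but their difference of -0.13 (95% interval -0.31 to 0.05) was not called. Its treated levels lay near 3.98, the upper bound of mean levels among the dimmest genes (the lowest 1993 of 19938), and signal over background was not tested.

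Skint3 was called in neither treatment against vehicle. Its values were 7.40, 6.76 and 7.17 in vehicle ears, 5.81, 6.49 and 6.92 in anisomycin ears and 7.21, 7.55 and 7.59 in imiquimod ears. The anisomycin arrays were spread widely and 1 of them reached into the vehicle range, while the imiquimod arrays overlapped vehicle. Anisomycin gave a difference of -0.70 from vehicle (SE 0.26, limma adjusted p = 0.0536), short of the threshold. In 7 of 11 processing alternatives it stayed uncalled. It was called with a trended and robust prior (limma adjusted p = 0.0475) and without the dimmest 30% of genes (0.035). It was also called with arrays centred on stable genes (0.0241) and with array weights (0.0094). It passed without anisomycin replicate 3 (-0.96, adjusted p = 0.0104) or vehicle replicate 2 (-0.88, adjusted p = 0.0339). It was smaller without anisomycin replicate 1 (-0.40, adjusted p = 0.153) or vehicle replicate 1 (-0.56, adjusted p = 0.167). Imiquimod gave 0.34 (SE 0.26, 95% interval -0.25 to 0.93, limma adjusted p = 0.349). Anisomycin and imiquimod differed by -1.04 (SE 0.26, limma adjusted p = 0.0222), with no overlap of arrays. That call ended without anisomycin replicate 2 (adjusted p = 0.0593), imiquimod replicate 2 (0.0775) or imiquimod replicate 3 (0.0781).

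Skint11, which lies at the far end of the cluster, fell with anisomycin and was not called with imiquimod. Its vehicle values were 6.62, 6.30 and 6.56, its anisomycin values 5.38, 5.61 and 6.04 and its imiquimod values 6.48, 6.67 and 6.75. Its fall with anisomycin was a difference of -0.82 (SE 0.16, limma adjusted p = 0.00203) and was at 0.14 with imiquimod (SE 0.16, 95% interval -0.22 to 0.50, limma adjusted p = 0.531). Anisomycin lay below imiquimod by a difference of -0.96 (SE 0.16, limma adjusted p = 0.00341). Over the 9 arrays, with each gene centred on its mean, Skint3 and Skint11 differed by a root mean square of 0.17 on the log2 scale, the smallest of the 21 pairs of family genes.

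Skint2 was at the bottom of the measured range. Its mean over the 9 arrays was higher than that of only 0.993% of genes, and 5 of its 9 deposited values were the same, 3.17. Its differences from vehicle were -0.18 with anisomycin (limma adjusted p = 0.0581) and -0.14 with imiquimod (0.145). Whether its signal exceeded background was not tested. The first of these passed the threshold without vehicle replicate 2 (-0.25, adjusted p = 0.00746), as did the second (-0.20, adjusted p = 0.0203). Without vehicle replicate 3 they were -0.11 (adjusted p = 0.165) and -0.069 (adjusted p = 0.406). Of 10 processing alternatives, 5 left the anisomycin difference uncalled and 8 the imiquimod difference. In the rest they were called, at limma adjusted p down to 0.00565 and 0.0188.

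**Figure D1:**
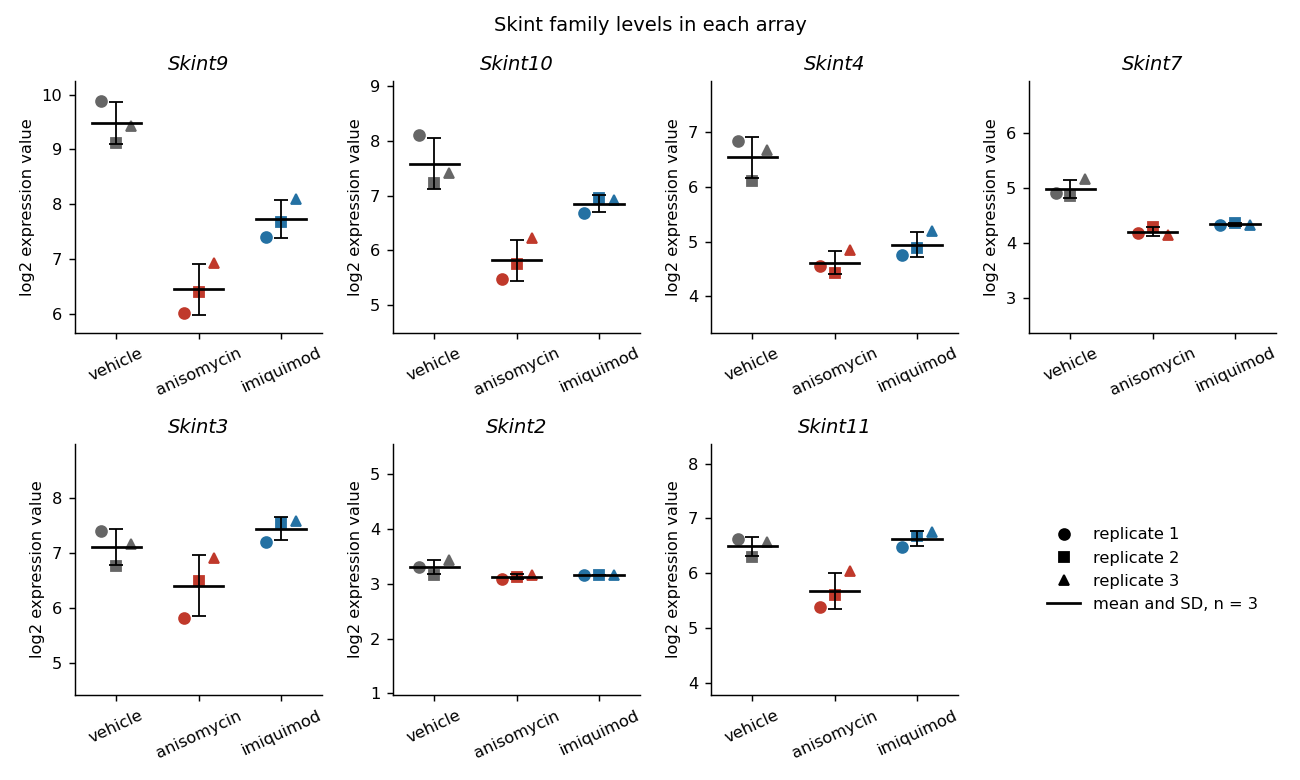
Log2 expression value of the 6 measured Skint members and of Skint11 in each of the 9 arrays, by group, with 1 marker shape per replicate number and the mean and SD of 3 arrays as bars; every panel spans the same range of log2 units. Vehicle arrays lie above all treated arrays for Skint9, Skint10, Skint4 and Skint7, the imiquimod arrays of Skint3 and Skint11 overlap the vehicle arrays, and Skint2 is near the floor.

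Counted over the family, 4 of the 6 measured members were called lower with anisomycin than with vehicle, Skint9 among them, and none higher. In that contrast 45.6% of all genes were called, 23.3% lower and 22.3% higher. Of the called genes 49% were higher, and 37.1% with the arrays centred on stable genes, a setting that moved the same share for imiquimod from 47.7% to 36.4%. The same 4 members had anisomycin arrays all below the vehicle arrays, as 26.4% of all genes did. The median difference of the 6 members was -1.27, beside -0.0097 over all genes. These counts and this median include Skint9, whose fall was already known. Of the other members Skint10, Skint4 and Skint7 were called, and their middle difference was -0.77, that of Skint7. With imiquimod the same 4 members were called lower and none higher, beside 42.7% of all genes called, 22.4% lower and 20.4% higher. Their arrays also did not overlap, as for 27.4% of all genes in the lower direction. The members had a median of -0.69 against -0.026 for all genes. Skint9, Skint10 and Skint4 fell at least 2-fold with anisomycin, as 3.45% of all genes did, and Skint9 and Skint4 did so with imiquimod, as did 2.60%. All 4 were thus called lower in both treatments, as were 17.5% of all genes. Between the treatments 3 of 6, Skint9, Skint10 and Skint3, were called lower with anisomycin, each at least 2-fold, and 1 of 6, Skint9, without anisomycin replicate 2, imiquimod replicate 2 or imiquimod replicate 3. Of all genes 20.4% were called there, 9.59% lower and 10.8% higher, and 0.702% were lower at least 2-fold. Arrays did not overlap for these 3 and Skint7, beside 17.9% of all genes. Skint9 and Skint10 were lower in both treatments and also lower with anisomycin than with imiquimod, as were 2.06% of all genes. Skint10 left that pair without anisomycin replicate 1 or 2, any single imiquimod replicate or vehicle replicate 1, by the adjusted p-values given for it above. Both contrasts against vehicle use the same vehicle arrays, so their agreement is not independent. Such small counts describe the members and carry no test of the family.

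**Figure D2:**
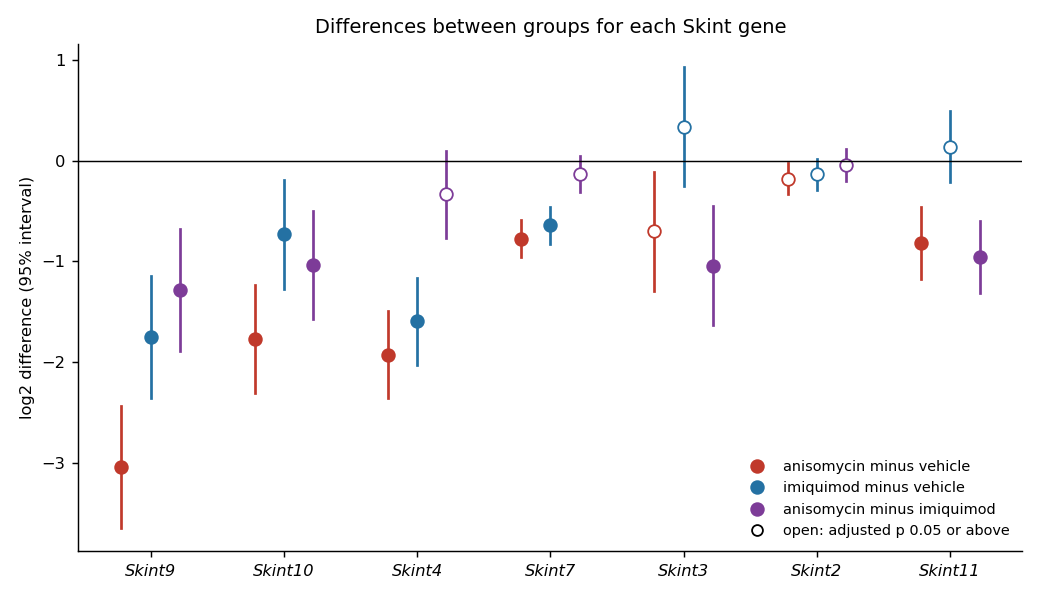
Log2 difference between groups for each Skint gene, with its 95% interval from limma, for anisomycin minus vehicle, imiquimod minus vehicle and anisomycin minus imiquimod; filled points have an adjusted p under 0.05. Skint9, Skint10, Skint3 and Skint11 are called lower with anisomycin than with imiquimod, and Skint4, Skint7 and Skint2 are not called in that contrast.

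The order of the groups differed between genes. Skint9 and Skint10 ran from vehicle through imiquimod down to anisomycin, with both steps called, though for Skint10 both calls were lost without some of the single arrays named above. Skint4 and Skint7 had vehicle on top and the treated groups below without a called difference between them. Skint3 and Skint11 had imiquimod and vehicle as neighbours that did not differ beyond their spread, with anisomycin lowest. Set beside the sequences printed above, Skint10 was called lower with imiquimod and Skint11, which aligned with it, was not. Skint4 was called lower in both treatments and Skint3, which aligned with its second start, in neither, though some alternatives called Skint3 lower with anisomycin. Whether the response itself differed between genes was not tested.

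The spread within the anisomycin group was shared by several genes. Replicate 1 had the lowest value of all 9 arrays for Skint2, Skint3, Skint9, Skint10 and Skint11, 5 of the 7 family genes measured, and replicate 3 was the highest anisomycin array for all but Skint7. Among vehicle arrays replicate 2 was the lowest for all 7. The part of such array-wide shifts in the single values was not tested. Without anisomycin replicate 1 the differences from vehicle were -1.60 for Skint10, -1.90 for Skint4 and -0.76 for Skint7, each still called. For Skint9 the value was -2.82, given as a description.

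The genes beside the cluster were looked at after the member values had been seen. On the Skint8 side the nearest measured protein-coding genes were Slc5a9, a sodium and sugar cotransporter, then Spata6, Bend5 and Agbl4. Slc5a9 rose by 1.22 with imiquimod (limma adjusted p = 0.00116) and was at -0.61 with anisomycin (0.0381), a call that ended in 9 of 20 alternatives. Its difference between the treatments was -1.83 (adjusted p = 0.000634). Spata6 was at -0.26 (adjusted p = 0.00559) and -0.21 (0.0197), calls that ended in 1 and 6 of 20 alternatives. Bend5 and Agbl4 lay within 0.05 of vehicle in both. On the Skint11 side Trabd2b, a Wnt-cleaving protease, fell by 0.96 with anisomycin (adjusted p = 0.000608) and by 0.57 with imiquimod (difference -0.575, adjusted p = 0.013). Foxd2 and Foxe3 were not called, and the nucleotide kinase gene Cmpk1 rose by 0.67 and 0.74. With anisomycin Foxe3 was at -0.205 (adjusted p = 0.0554) and was called lower in 5 of 20 alternatives. Foxd2 was called higher with anisomycin in 1 of 20.

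**Figure D3:**
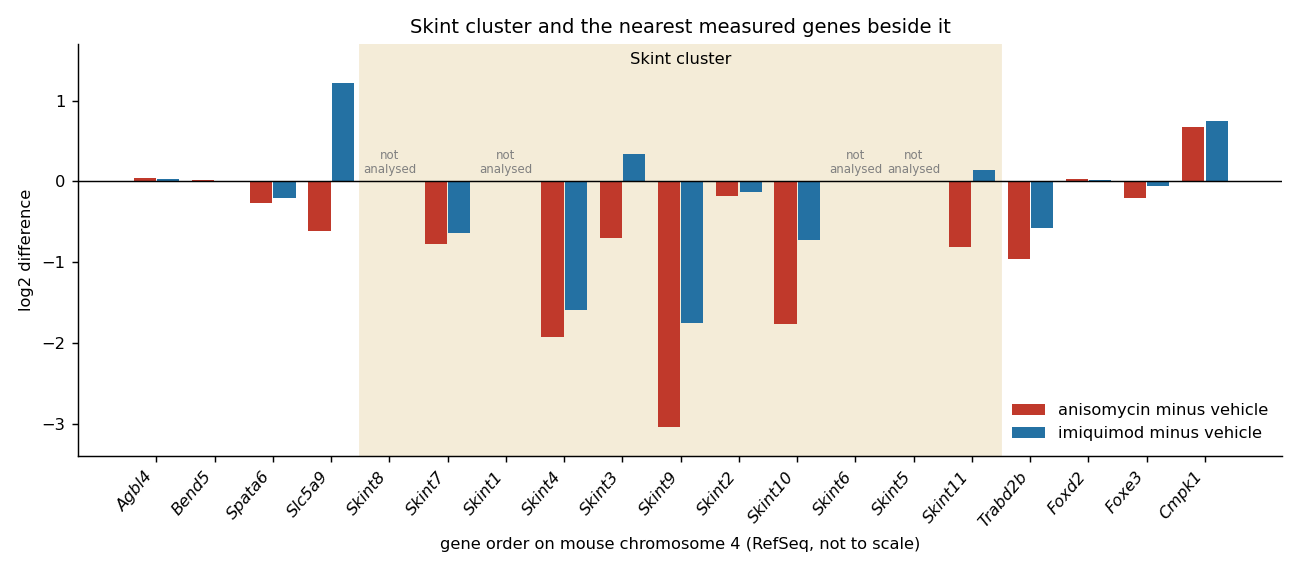
Log2 difference from vehicle for anisomycin and imiquimod, with genes in their RefSeq order along mouse chromosome 4 and not to scale; the shaded part holds the Skint genes, and 4 of them were not analysed. The deepest bars, -3.04, -1.92 and -1.77 with anisomycin, belong to Skint9, Skint4 and Skint10, while the flanking genes differ in sign and size.

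Genes with the most similar profiles were found by the root mean square difference over the 9 arrays from the mean profile of Skint4, Skint7, Skint9 and Skint10, each centred on its mean. This is a measure of likeness and not a test. The closest were Kazald1, a secreted protein of the insulin-like growth factor binding type (0.106), Slc22a4, a transporter of ergothioneine and carnitine (0.109), and Tnfrsf19, a TNF receptor family member (0.111). They were followed by Fam189a2, Ints6l, Cttnbp2, Slc16a9 and Abhd14b, at up to 0.171. Their differences ran from -1.58 to -2.14 with anisomycin and from -1.02 to -1.52 with imiquimod. Over the processing alternatives Slc16a9 ran from -1.71 to -0.76 with anisomycin and from -1.18 to -0.54 with imiquimod. Taken singly, Skint10 was closest to Nlrp10, an NLR family gene (0.106), and to Clca3a2 (0.171). Skint4 was closest to Ackr4, a scavenging chemokine receptor (0.13), and to the actin-severing Scin (0.16). Skint7 was closest to the ciliary motor gene Dync2h1 (0.0587) and the endoplasmic reticulum lectin Erlec1 (0.0597). Skint9 had no near match. Serpina12 (vaspin) and the transcription factor Hlf were its closest, each at 0.303.

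Skint genes are keratinocyte genes, so the keratinocyte markers of the same arrays were read beside them. In counts over a list, here and below, rose and fell mean called higher and called lower. Of all genes 22.3% were called higher and 23.3% lower with anisomycin, and 20.4% and 22.4% with imiquimod. Of 22 suprabasal markers measured, 15 rose and 5 fell with anisomycin, with a median of 0.71, and 15 rose and 2 fell with imiquimod, with a median of 0.93. The mean level over this list was 9.90 to 10.49 in vehicle arrays, 10.47 to 10.90 with anisomycin and 10.89 to 11.00 with imiquimod. The protease gene Casp14 rose by 2.18 and 2.69, involucrin (Ivl) by 2.17 and 2.24, and the transglutaminase Tgm3 by 2.97 and 2.49. Krt1 rose by 1.35 and 2.34. Flg2, at -3.39 and -2.80, and Krt77, at -2.15 and -3.14, fell in both treatments. Krt77 was higher with anisomycin than with imiquimod, by 0.58 to 1.005 over the processing alternatives. That call ended in 4 of 20 alternatives. Each measured Skint gene had a lower mean with anisomycin than with imiquimod. Krt2, at -1.78, and loricrin (Lor), at -1.27, fell with anisomycin but were at -0.18 and -0.36 with imiquimod, neither called. Lor passed there without anisomycin replicate 1 (adjusted p = 0.0294) and with only the vehicle and imiquimod arrays fitted (0.0231).

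Of 14 basal keratinocyte markers, 8 rose and 4 fell in each treatment, with medians of 0.49 and 0.22. The shares of all genes given above stand beside each list here. Itga3 rose by 2.11 with anisomycin and Cdh3 by 1.62 with imiquimod, while Krt15 was at -2.46 and -2.54. Itga3 also rose with imiquimod and Cdh3 with anisomycin, by 0.83 to 1.00 and 1.52 to 1.66 over the processing alternatives. In whole ear RNA fewer cells of a type and less RNA per cell cannot be told apart. Other tissues of the ear moved in the same arrays. All 14 skeletal muscle markers fell, with medians of -1.77 and -1.79 and Pvalb at -2.68 and -2.67. Of 13 neutrophil markers 11 rose with anisomycin and 12 with imiquimod, with medians of 4.73 and 3.71. Adipocyte markers fell in 9 of 10 cases in each treatment, and fibroblast and cartilage markers fell in 8 of 11. Of hair follicle markers 10 of 16 fell and 3 rose with anisomycin, and 7 fell and 2 rose with imiquimod. Sebaceous gland markers gave 1 higher and 4 lower of 10, then 3 higher and 2 lower. The part of these shifts in the falls of the Skint genes was not tested. The markers that define skin and ear, such as Krt5, Krt14, Col1a1 and Col2a1, had a mean level of 11.06 to 11.14 in vehicle arrays, 10.52 to 10.84 with anisomycin and 10.91 to 10.98 with imiquimod. Of these 10 markers 2 rose and 7 fell with anisomycin, and 3 rose and 5 fell with imiquimod.

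The T cells that Skint1 serves were read from 24 measured markers of epidermal gamma delta T cells, although the constant and variable genes of their receptor on this list were not analysed here. With anisomycin 6 rose and 9 fell, a median of -0.056, and with imiquimod 4 rose and 7 fell, a median of -0.064. Beside these stand 22.3% of all genes called higher and 23.3% lower with anisomycin, and 20.4% and 22.4% with imiquimod. Such counts carry no test of the T cells. Among genes of the T cell receptor complex Cd3g fell by 1.25 and 1.07 (differences -1.255 and -1.067, limma adjusted p = 0.00365 and 0.00975) and Cd3e fell by 0.54 with anisomycin (0.0062). For imiquimod Cd3e was at -0.41 (0.0248), which ended without imiquimod replicate 1 or 2 or vehicle replicate 1 or 3, at adjusted p of 0.0545, 0.0904, 0.0864 and 0.0532. In the same complex Cd247 was at -0.19 (adjusted p = 0.031) and -0.29 (0.00335). Cd3d was at -0.016 and 0.0066, neither called. The adhesion receptor gene Cd96 fell by 0.78 and 0.72. Nkg7 and Rora fell with anisomycin, by 0.89 and 1.25, and Cd7 with imiquimod, by 0.66.

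Others went the other way. Fcer1g, which myeloid cells also express, rose by 1.56 and 1.48, Jaml, a costimulatory receptor of epidermal T cells that neutrophils also carry, rose by 1.02 and 0.57, and the cytokine receptor Il7r rose by 1.05 with anisomycin. The rise of Jaml with imiquimod missed the threshold without vehicle replicate 3 (adjusted p = 0.0505). Gzmb rose by 0.55 and 0.51 (limma adjusted p = 0.000825 and 0.00156) and Cd244a by 0.43 and 0.47 (0.0242 and 0.0171). Il2rb rose by 0.20 with anisomycin (0.0435) and was not called with imiquimod. The dependence of the calls of Gzmb, Cd244a and Il2rb on single arrays was not tested. The NKG2D gene Klrk1 was at 0.13 and -0.07, neither called. The integrin Itgae, by which T cells hold to keratinocytes, was at -0.21 (adjusted p = 0.0385) and -0.26 (0.0156), calls that ended in 9 and 2 of 20 alternatives.

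A list of ligands, receptors and survival factors that link keratinocytes and these T cells held genes of both partners. Of 14 measured, 9 rose and 1 fell with anisomycin, with a median of 0.49, and 6 rose and 2 fell with imiquimod, with a median of 0.24. The shares of all genes were 22.3% higher and 23.3% lower with anisomycin, and 20.4% and 22.4% with imiquimod. Sema4d, which encodes CD100, carried by the T cells and bound by plexin B2 on keratinocytes, rose by 1.58 and 1.33. Over the processing alternatives its rise was 0.77 to 1.63 with anisomycin and 0.64 to 1.37 with imiquimod. The low ends came with the mean of its probe sets, so these did not move alike. In that setting the treatments differed by 0.13 (limma adjusted p = 0.0808). Which cells of the ear carried that rise was not tested. Plxnb2, which encodes plexin B2, rose by 0.83 and 0.92. Icam1 rose by 1.73 and 0.62, and Tslp by 2.34 with anisomycin. With imiquimod Tslp was at 0.51, not called, and it was called higher in 8 of 20 alternatives. Cxadr, the partner of JAML, was at -0.02 with anisomycin and rose by 0.75 with imiquimod, a difference of -0.77 between the treatments (limma adjusted p = 0.0034). The survival cytokine Il15 was at 0.56 with anisomycin (0.0229), a call that ended without anisomycin replicate 2, vehicle replicate 2 or vehicle replicate 3 (0.0895, 0.0815 and 0.0524), and at 0.12 with imiquimod. Il7 was at -0.15 and -0.19, calls that ended in 14 and 4 of 19 alternatives. Ahr, which these T cells need to persist, fell by 0.64 with imiquimod. With anisomycin Ahr was at -0.32, not called, and it was called lower in 8 of 20 alternatives. H60c and Ccl27a were not analysed here.

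Relatives of the Skint genes in the butyrophilin and B7 families were read as 17 measured genes. With anisomycin 6 rose, Skint11 alone fell and 10 were not called, and with imiquimod 4 rose and 13 were not called. Of all genes 22.3% and 20.4% were called higher in these contrasts. Cd80 rose by 2.84 and 1.60, Cd274, which encodes PD-L1, by 1.80 and 1.69, and Btnl2 by 0.93 with anisomycin.

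Langerhans cells, the other resident immune cell of the epidermis, gave 3 markers higher and 6 lower of 12 with anisomycin, and 1 higher and 6 lower with imiquimod. Beside them, 22.3% of all genes were called higher and 23.3% lower with anisomycin, and 20.4% and 22.4% with imiquimod. The Langerhans lectin Cd207 fell by 0.83 and 0.44, and the MHC class II gene H2-Ab1 by 0.998 and 1.03. The 3 higher with anisomycin were Itgax, Tgfb1 and Runx3. Over the processing alternatives they were at 1.365 to 1.586, 0.75 to 0.90 and 0.37 to 0.54. With imiquimod Tgfb1 was the 1 higher, at 0.69 to 0.84. The keratinocyte cytokine Il34, which maintains these cells, fell by 1.89 and 0.61, and was lower with anisomycin than with imiquimod by a difference of -1.28 (adjusted p = 0.000196).

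**Figure D4:**
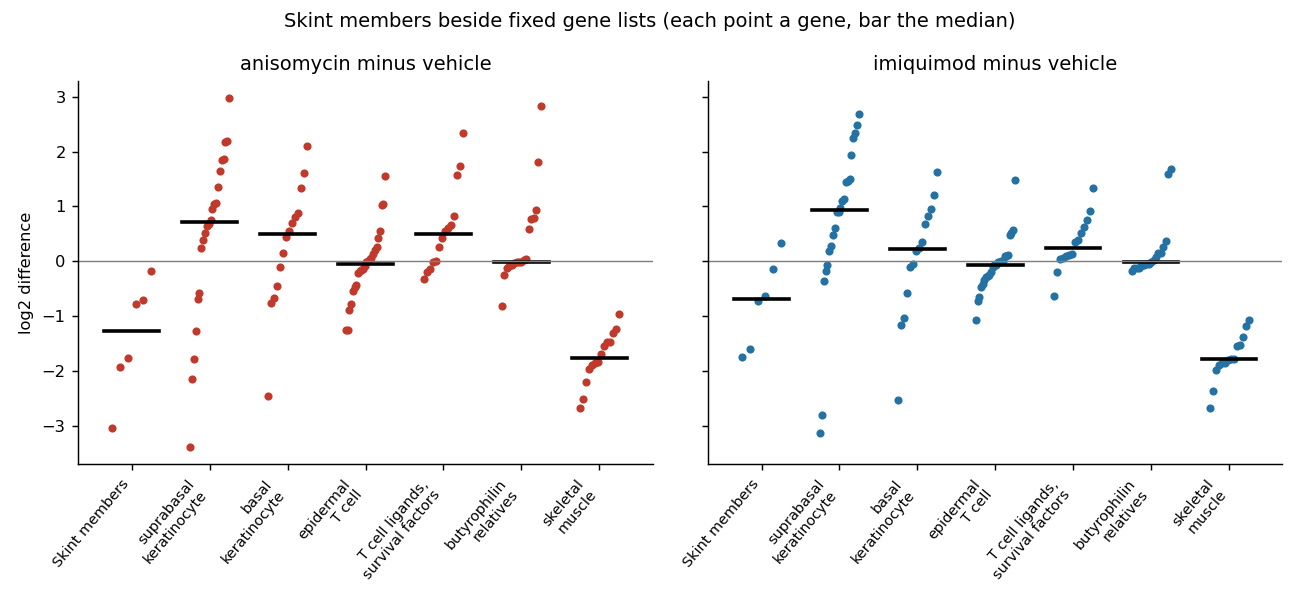
Log2 difference from vehicle for each gene of the 6 measured Skint members and of 6 gene lists, with anisomycin on the left and imiquimod on the right, and the median as a bar. The Skint median lies at -1.27 and -0.69, where suprabasal keratinocyte markers lie at 0.71 and 0.93 and skeletal muscle markers at -1.77 and -1.79. The Skint points with anisomycin include Skint9, whose fall was already known, and the middle of the other members is -0.77.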

How the data were processed

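The authors deposited 1 table of log2 expression values from Affymetrix Mouse Gene 1.0 ST arrays, made with RMA (background correction, quantile normalization and probe set summary), per the submitters' processing notes. The version, the genome build and whether all arrays were normalized together are not given in the sources used here, and the log2 scale was judged from the range of 2.39 to 13.97. Of 35556 rows, 21789 carry 1 symbol, 1621 several and 12146 none. The brightest row per symbol left 19938 genes, with no filter on low values.

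A linear model with 3 group means was fitted to all 9 arrays (limma 3.58.1, R 4.3.3; two-sided moderated tests). Genes counted as called below 0.05 after Benjamini-Hochberg adjustment across all genes. The number of arrays limits the precision. The fit was tested on simulated data. Members and lists were chosen with earlier results of these data known. Lists are described by counts and medians. Named genes were all members, up to 4 called genes per list and contrast, genes fixed by name, and the nearest profiles (8 for the mean and 2 per member). Gzmb, Cd244a, Il2rb, Cd3d and Cd247 of the T cell list were named in addition. Promoter windows came from RefSeq (GRCm38.p6) and were aligned with Biopython 1.88. Arrays with the same replicate number did not deviate together, with correlations of deviations of -0.201 to 0.196 and 2 of 9 pairs over 0.1.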

Additional observations from a re-analysis of the deposited data

How the results depend on the processing

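The 6 members were refitted with a trended and robust prior, without the dimmest 30% of genes (which kept 4 of 6 members), with quantile normalization repeated, with cyclic loess, with arrays centred on medians or on 1000 stable genes, with the mean of probe sets, with all rows tested, with array weights, with a replicate block, with only the 2 groups compared, and without each array in turn. A second probe set could not be tried, since each member had 1. Of 354 member values, 323 kept their direction and their side of the threshold, 15 lost the call, 16 gained it and 0 changed direction. The calls of Skint4 in both treatments and of Skint9 with imiquimod held in all 20 alternatives, and those of Skint7 in the 19 that could be fitted, since it was among the dimmest genes left out. The number of members called was 4 to 6 for anisomycin against vehicle, with Skint9 counted, and 3 to 5 for imiquimod against vehicle. Without single arrays it was 1 to 3 between the treatments, 1 without anisomycin replicate 2, imiquimod replicate 2 or imiquimod replicate 3. With the replicate block the numbers were 4, 3 and 3, and Skint10 with imiquimod lost its call (adjusted p = 0.0572). It also did so with cyclic loess (0.0531) and all rows tested (0.0529). Skint4 was called between the treatments only with array weights (-0.50, adjusted p = 0.00655). Calls over the 4 pathway lists together numbered 19 between the treatments and 13 to 31 without single arrays, 31 without vehicle replicate 2. Of the genes called with anisomycin, the part that rose moved with centring from 49% to 56.4% (medians) or 37.1% (stable genes), and with imiquimod from 47.7% to 54.7% or 36.4%, and turned no member. Between the treatments 4059 of all genes were called, 8557 with array weights and 2523 without imiquimod replicate 1. Signal over background limits Skint2 and Skint7.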
